A study of Homo sapiens with 4 samples.

Results

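The globin genes described here were the embryonic genes HBZ (zeta) and HBE1 (epsilon), the fetal gamma genes HBG1 and HBG2, and the alpha genes HBA1 and HBA2, which remain in use in fetal and adult life. They were found by gene symbol in the deposited expression table, where each was listed as 1 transcript, so that the 6 genes stood among 16504 gene symbols. They were chosen by their measured FPKM in these same libraries, with earlier results of the comparison known, so the levels are a description and the tests on them are no independent evidence. All 6 passed the filter on low values, a mean of 1 FPKM or more. FPKM is the number of sequenced fragments scaled to the length of the transcript and to the size of the library.

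RNA-seq was performed on 4 libraries of total RNA labelled NB4, a human cell line from acute promyelocytic leukemia. By their labels, 2 libraries (titled NC) came from control cells in which CEBPG was present and 2 (titled CEBPG3) from cells with CEBPG knocked down. In the study, cells were infected with lentivirus carrying short hairpin RNAs (shRNAs) and selected with puromycin, the control cells with a control shRNA, and the number 3 was read as the third CEBPG shRNA, which is an assumption. The knockdown was therefore made with 1 hairpin in 1 cell line, and no age, time point or further treatment is labelled. The labels do not say whether the replicates came from separate cultures, so p-values measure only the spread between these libraries, which may be technical.

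Hemoglobin is built from a pair of alpha-like and a pair of beta-like chains, each holding a heme group. The alpha-like genes lie together on chromosome 16 and the beta-like genes on chromosome 11, and in both clusters the genes lie in the order in which they are used in development. Erythroid cells of the early embryo use zeta and epsilon chains and begin to use alpha chains, fetal cells use alpha and gamma chains, and adult cells use alpha chains with beta and a little delta. Globin transcripts are a hallmark of red cell precursors and are not characteristic of promyelocytes.

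CEBPG, a CCAAT enhancer binding protein and the target of the hairpin, stood at 17.1 and 18.1 FPKM in controls 1 and 2 against 6.91 and 7.96 FPKM in knockdowns 1 and 2, the order kept below (limma, log2 fold change -1.14, adjusted p = 0.000836). FPKM values summed to 345340 to 365882 per library, and read depth was unknown. Of 14 erythroid markers, 10 were over 10 FPKM in every library, among them GATA1 at 109.9 to 128 FPKM. Of 12 promyelocytic and myeloid markers, 6 were below 1 FPKM in every library, including the granule protease genes AZU1 and PRTN3, and 2 were over 10 FPKM in every library, LYZ and SPI1. CFD (7.63 to 10.98 FPKM), CD33 (4.31 to 9.77 FPKM) and FUT4 (6.74 to 7.86 FPKM) lay between. Some markers of the labelled cell type were thus near 0 and others were expressed, while the late erythroid markers AHSP, SLC4A1 and EPB42 were below 1 FPKM in every library. Abundant erythroid factors beside granule proteases near 0 go against the labelled cell type, so the identity of the line is in doubt and was not tested here. The globins, chosen by their level, are not counted in this. The libraries are called only by their labels. The summed level of the erythroid markers was 687 to 741 FPKM in the controls and 695 to 701 FPKM in the knockdown, and that of the promyelocytic and myeloid markers was 58.5 to 59.3 and 63.4 to 64.5 FPKM; no marker of either list was at 0 in every library. Of 3 megakaryocytic markers with values, the summed level was 6.19 to 6.63 FPKM in the controls and 8.69 to 9.71 FPKM in the knockdown. Of 4 lymphoid markers with values, the sum was 32.7 to 33.7 and 57.1 to 67.6 FPKM, nearly all of it from CD3D, while CD3E and CD79A were below 1 FPKM in every library. The part of these cell type differences in the results was not tested. In bulk RNA, fewer cells of a type and less RNA per cell cannot be told apart.

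The first 60 coding bases of each gene are shown because they show which globins a read can tell apart. They were taken from the GENCODE 44 transcripts of GRCh38 (hg38), the build that the submitters' processing notes also name, and all lie in the first exon, starting with the start codon. Capitals mark the 27 bases in which zeta and alpha differ and the 13 bases in which epsilon and gamma differ. HBZ lies on chromosome 16 at positions 152644 to 154503, HBA2 at 172876 to 173710 and HBA1 at 176680 to 177522, all on the plus strand. HBE1 lies on chromosome 11 at positions 5268345 to 5269945, HBG2 at 5253188 to 5254781 and HBG1 at 5248269 to 5249857, all on the minus strand.
HBZ (chr16:152910-152969): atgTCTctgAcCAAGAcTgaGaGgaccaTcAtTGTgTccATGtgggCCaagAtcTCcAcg
HBA1 (chr16:176717-176776): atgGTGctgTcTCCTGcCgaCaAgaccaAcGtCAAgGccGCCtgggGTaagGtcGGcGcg
HBA2 (chr16:172913-172972): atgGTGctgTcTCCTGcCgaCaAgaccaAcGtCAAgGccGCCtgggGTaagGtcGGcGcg
HBE1 (chr11:5269831-5269890): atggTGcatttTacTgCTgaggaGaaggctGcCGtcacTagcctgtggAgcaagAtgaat
HBG1 (chr11:5249745-5249804): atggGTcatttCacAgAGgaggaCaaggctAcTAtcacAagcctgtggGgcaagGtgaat
HBG2 (chr11:5254669-5254728): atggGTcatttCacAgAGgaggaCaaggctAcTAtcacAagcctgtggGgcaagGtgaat

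The coding sequences of HBA1 and HBA2 were identical over 429 bases. Those of HBG1 and HBG2 differed in 2 of 444 bases, C227T and C410G, with the HBG1 base first and positions counted from 1 at the A of the start codon. Both sites are shown with the differing base in capitals, since within the coding sequence these are the only bases that tell the gamma genes apart.
HBG1 (chr11:5249441-5249471): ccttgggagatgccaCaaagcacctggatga
HBG2 (chr11:5254365-5254395): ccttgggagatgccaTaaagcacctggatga
HBG1 (chr11:5248378-5248408): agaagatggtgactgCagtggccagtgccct
HBG2 (chr11:5253296-5253326): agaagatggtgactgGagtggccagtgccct

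Over whole transcripts, 53.9% of the 100-base windows of HBG1 were found unchanged in HBG2, and 79.7% of those of HBA1 were found in HBA2. No 100-base window of HBZ was found in HBA1, and none of HBE1 in HBG1 or HBG2. The coding sequence of HBZ was 69.6% identical to that of HBA1, and that of HBE1 was 83.6% identical to those of both gamma genes. The division of reads within the gamma pair and within the alpha pair is therefore uncertain, and both pairs were also summed.

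The gamma genes held the highest globin levels. FPKM is scaled to transcript length, so levels can be set side by side between genes. In every library the order from highest to lowest was HBG2, HBG1, HBE1, HBA1, HBA2 and HBZ. HBG2 ranked second of all 16504 genes in all 4 libraries, and HBG1 ranked 17th and 16th in the controls and 10th in both knockdown libraries. HBE1 ranked between 33 and 39, HBA1 at 43 or 44, and HBA2 between 49 and 55. HBZ ranked 117 and 122 in the controls and 219 and 211 in the knockdown libraries. Within each group the values of neighbours in this order did not overlap. The steps from HBE1 to HBA1 and from HBA1 to HBA2 were small beside the others, and the place of HBA1 above HBA2 rests on the uncertain division of the pair.

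Upon CEBPG knockdown, embryonic zeta fell and fetal gamma rose, while embryonic epsilon and the alpha genes were not called. Of the 6 globin genes, 3 had an adjusted p under 0.05 (limma), 1 lower and 2 higher. Among all 10968 tested genes 20.9% were called, 9.99% lower and 10.9% higher in the knockdown. The values of the groups did not overlap in 5 of the 6 globin genes, 2 lower and 3 higher in the knockdown, against 64.8% of all tested genes, 30.5% lower and 34.3% higher. The median log2 fold change of the 6 genes was 0.067, against 0.015 over all tested genes.

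**Figure D1:**
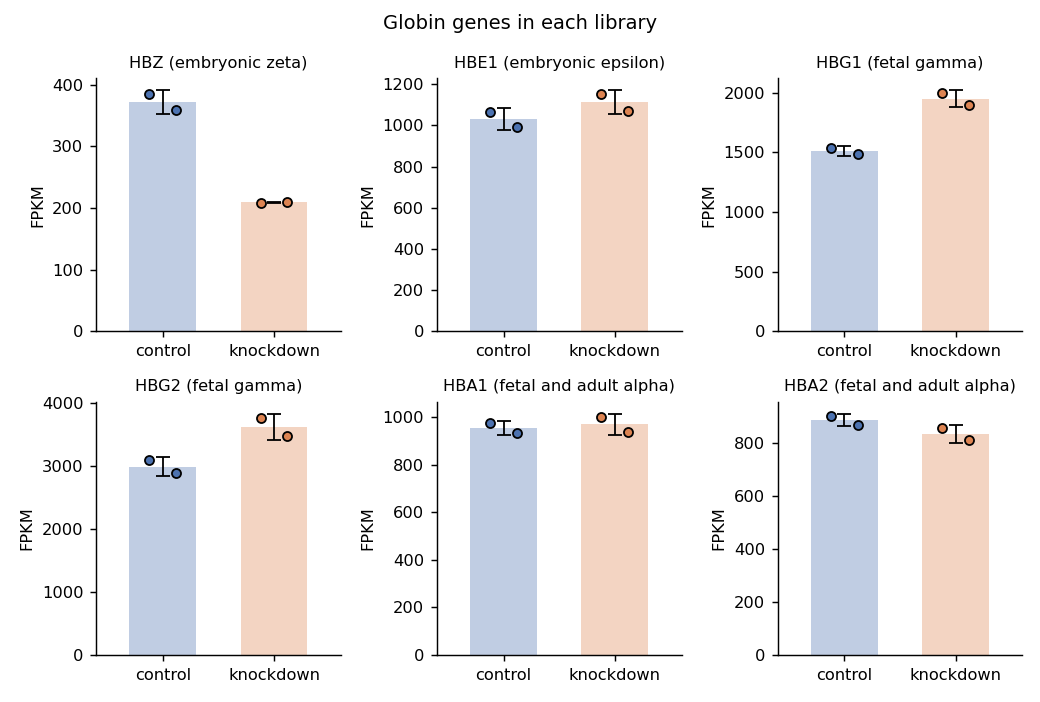
FPKM of each globin gene in the control and knockdown libraries, with a point per library, bars for the group mean and whiskers for the SD (n = 2 per group). HBZ drops from a mean of 372 to 209 FPKM, both gamma genes are higher in both knockdown libraries, and the alpha and epsilon bars stay close to each other.

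HBZ encodes the zeta chain, the embryonic alpha-like chain. Its level was 385 and 358 FPKM in the controls, and 208.5 and 209.5 FPKM remained after knockdown. Both knockdown libraries lay far below both controls and close to each other. The control mean of 372 ± 18.7 FPKM (SD, n = 2) thus fell to 209 ± 0.674 FPKM (SD, n = 2), leaving 56.2% of it. This was a log2 fold change of -0.83 (standard error 0.061, 95% interval -0.97 to -0.68, limma adjusted p = 0.000959). Of all 10968 tested genes, 83, HBZ included, had a log2 fold change as low as this or lower. It was between -0.88 and -0.78 when each library was left out in turn, with an adjusted p of at most 0.012 (limma). Tested among 15795 transcripts in place of genes, the same difference had an adjusted p of 0.0587 (limma).

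HBG1 and HBG2 encode the gamma chains of fetal hemoglobin. For HBG1 the controls held 1539 and 1485 FPKM and the knockdown libraries 1998 and 1897 FPKM. For HBG2 the controls held 3095 and 2889.6 FPKM and the knockdown libraries 3766 and 3479 FPKM. For both genes each knockdown library was above each control library. HBG1 rose by a log2 fold change of 0.36 (standard error 0.067, limma adjusted p = 0.0132) and HBG2 by 0.28 (standard error 0.078, limma adjusted p = 0.0487).

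Summed, the gamma pair was at 4635 and 4374 FPKM in the controls and at 5764 and 5377 FPKM in the knockdown. Its control mean of 4504 ± 184 FPKM (SD, n = 2) rose to 124%, or 5570.3 ± 274 FPKM (SD, n = 2). On the log2 scale the sum was higher by 0.31 (standard error 0.078, 95% interval 0.12 to 0.49, limma adjusted p = 0.0361). With the pairs summed, 20.9% of 10966 entries were called, 10.9% as higher. With 1 library left out the sum was at 0.35 without control 1, 0.26 without control 2, 0.26 without knockdown 1 and 0.36 without knockdown 2. The sign could not change, since the groups did not overlap, and the call was lost in each of these fits. HBG2 alone was also lost in all 4 fits, with adjusted p values of 0.0599 to 0.413, and HBG1 alone was lost without knockdown 1 (0.188) and without knockdown 2 (0.115) in limma.

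HBE1 encodes the epsilon chain, the embryonic beta-like chain. Its level was 1067 and 994 FPKM without knockdown and 1153 and 1072 FPKM with it. The lower knockdown library was only just above the higher control. The log2 fold change was 0.11 with a 95% interval of -0.060 to 0.28 (limma, adjusted p = 0.308), an interval that includes 0. With a library left out it was 0.16 without control 1, 0.059 without control 2, 0.058 without knockdown 1 and 0.16 without knockdown 2.

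HBA1 and HBA2 encode the same alpha chain. HBA1 was at 975 and 933 FPKM in the controls and at 999 and 939 FPKM in the knockdown, and its groups overlapped. HBA2 was at 904 and 871 FPKM in the controls and at 859 and 812 FPKM in the knockdown, with both knockdown libraries just below both controls. Their log2 fold changes were 0.023 (limma, 95% interval -0.13 to 0.18, adjusted p = 0.834) and -0.088 (limma, 95% interval -0.24 to 0.065, adjusted p = 0.363). Summed, the pair was at 1879 and 1804 FPKM in the controls and at 1858 and 1751 FPKM in the knockdown, 98.0% of the control mean. On the log2 scale the sum differed by -0.029 (95% interval -0.19 to 0.13, limma adjusted p = 0.792). With the columns scaled to one sum, HBA2 alone was called lower (-0.11, limma adjusted p = 0.0437), while the sum was not (-0.052, 0.243). Leaving out 1 library moved the sum between -0.072 without knockdown 1 and 0.013 without knockdown 2.

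The spread between replicates was largely shared by the globin genes. Control 1 was 1.04 to 1.07 times control 2 for each of the 6 genes, while the summed FPKM of control 1 was 1.06 times that of control 2. Knockdown 1 was 1.05 to 1.08 times knockdown 2 for the genes other than HBZ, for which it was 0.995 times, and the summed FPKM stood at 1.03 times. Ratios within a library are free of such a shared factor.

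The ratio of zeta to alpha, HBZ over the sum of HBA1 and HBA2, was 0.205 and 0.199 in the controls against 0.112 and 0.120 after knockdown. The mean went from 0.202 ± 0.00434 (SD, n = 2) to 0.116 ± 0.00523 (SD, n = 2), 57.5% of the control value. The ratio of epsilon to gamma, HBE1 over the sum of HBG1 and HBG2, was 0.230 and 0.227 in the controls and 0.200 and 0.199 in the knockdown. Its mean went from 0.229 ± 0.00219 (SD, n = 2) to 0.1997 ± 0.000482 (SD, n = 2), 87.3% of the control value. Both embryonic genes were thus lower relative to the later gene of their own cluster, the first with a lower HBZ level and the second with a higher gamma level and HBE1 not called. For each ratio the groups did not overlap and the difference was larger than the spread between replicates, but with 2 against 2 libraries the exact permutation test cannot give a 2-sided p below 0.333, the value found for both.

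**Figure D2:**
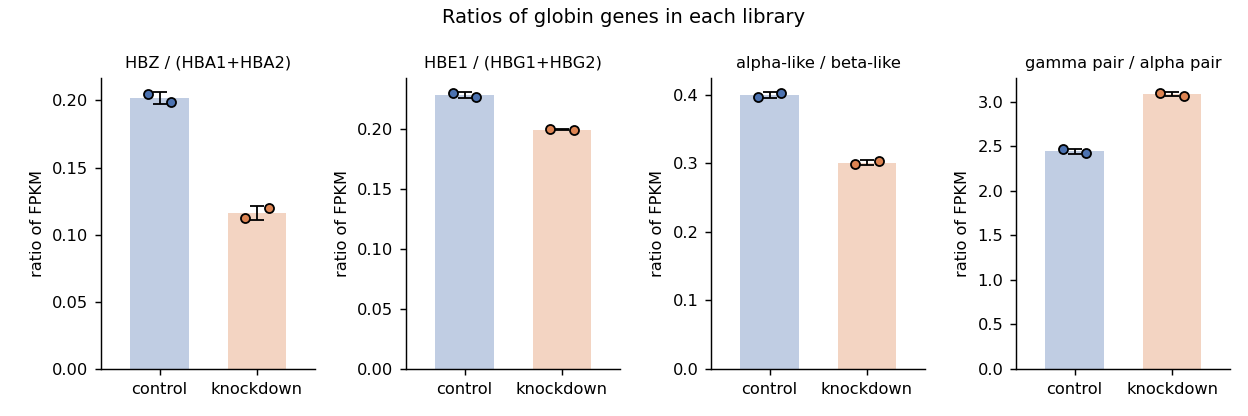
Ratios of FPKM between globin genes or summed pairs within each library, with a point per library, bars for the group mean and whiskers for the SD (n = 2 per group); alpha-like is HBZ, HBA1 and HBA2, and beta-like is HBE1, HBG1 and HBG2. The first 3 ratios are lower and the gamma-to-alpha ratio is higher in the knockdown, and the points of the groups do not overlap in any panel.

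The alpha-like genes summed to 0.397 and 0.403 times the beta-like genes in the controls but to 0.299 and 0.304 times after knockdown. This chain ratio counts the 6 genes described here. The ratio of gamma to alpha was 2.47 and 2.43 in the controls and 3.102 and 3.07 in the knockdown. The ratio of zeta to epsilon, the pair used together in the embryo, was 0.361 in both controls and 0.181 and 0.195 in the knockdown libraries, so the levels of the embryonic genes lay further apart in the knockdown. For these ratios the groups did not overlap, with an exact permutation p of 0.333, the smallest this design allows.

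Within the pairs the division shifted a little. HBG2 was at 2.01 and 1.946 times HBG1 in the controls and at 1.89 and 1.83 times in the knockdown, and HBA1 was at 1.08 and 1.07 times HBA2 in the controls and at 1.16 times in both knockdown libraries. These ratios rest on the few bases that tell the copies apart, which for the alpha genes lie outside the coding sequence.

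In the make-up of the summed globin FPKM, gamma held a larger share in the knockdown and zeta and alpha smaller ones. The alpha level itself was not called, at 98.0% of the control, so its smaller share is one of a larger sum. Gamma held 58.2% and 58.1% in the controls but 64.2% and 63.9% after knockdown. HBZ held 4.83% and 4.76% in the controls and 2.32% and 2.49% in the knockdown. The alpha pair held 23.6% and 24.0% and then 20.7% and 20.8%, and HBE1 held 13.4% and 13.2% and then 12.8% and 12.7%. The 6 genes together held 2.18% of all FPKM in both controls and 2.45% and 2.36% after knockdown.

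**Figure D3:**
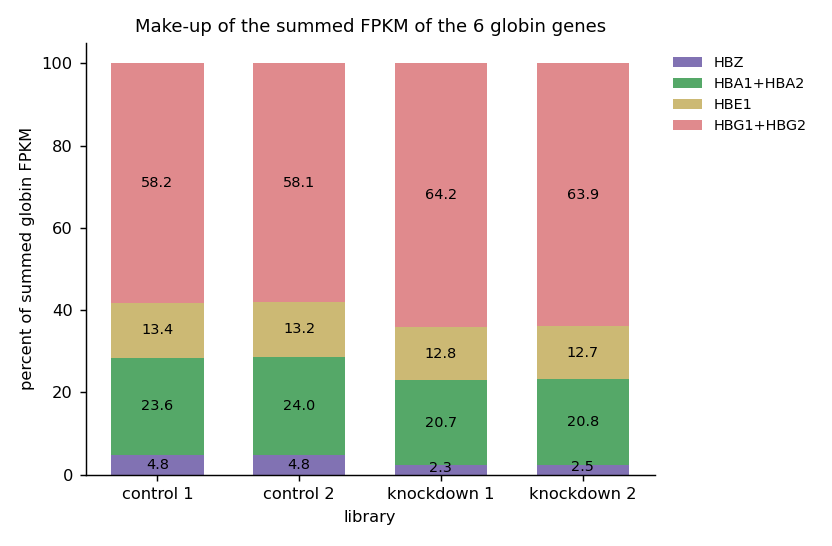
Share of the summed FPKM of the 6 globin genes held by HBZ, the alpha pair, HBE1 and the gamma pair in each library, as stacked bars in percent. The gamma share is larger and the HBZ and alpha shares are smaller in both knockdown bars than in both control bars.

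Of 6 further globins listed from general knowledge, 3 had values in the table, 2 were tested and both were called higher, against 10.9% of all tested genes. HBD encodes the delta chain, the minor adult beta-like chain, and was at 6.67 and 4.26 FPKM in the controls and at 12.9 and 15.97 FPKM in the knockdown. It rose by 1.27 on the log2 scale (standard error 0.18, limma adjusted p = 0.00554), and by 1.00 without control 2 to 1.54 without control 1. With no filter on low values the calls on HBD and HBQ1 were lost (limma, adjusted p = 0.0572 and 0.0811). HBQ1, the theta gene of the alpha cluster, was at 23.8 and 19.4 FPKM in the controls and at 34.1 and 29.9 FPKM in the knockdown, a log2 fold change of 0.55 (limma, adjusted p = 0.0155). Without knockdown 1 the call on HBQ1 was lost (0.46, limma adjusted p = 0.0845). CYGB, cytoglobin, was at most at 0.052 FPKM. HBB, the adult beta gene, and HBBP1, a pseudogene between the gamma and delta genes, were on no list and were read after the values of the others had been seen. HBB was listed at 0 and 0.129 FPKM in the controls and at 0.666 and 0.399 FPKM in the knockdown, below the filter. HBBP1 was at 10.7 and 9.73 FPKM in the controls and at 14.7 FPKM in both knockdown libraries, a log2 fold change of 0.49 (limma, adjusted p = 0.0061).

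Set out along the chromosome, the log2 fold changes of the genes that passed the filter followed the order of the genes in both clusters. HBB, at the far end of the beta cluster, did not pass it and is left out of this order. On the log2(FPKM + 1) scale its difference was smaller than that of HBD. In percent of the control mean it was larger (828% against 264%), so near the floor its place depends on the scale. In the alpha cluster they were -0.83 for HBZ, -0.088 for HBA2, 0.023 for HBA1 and 0.55 for HBQ1, which start 0, 20.2, 24.0 and 27.8 kb along the cluster from HBZ. In the beta cluster they were 0.11 for HBE1, 0.28 for HBG2, 0.36 for HBG1, 0.49 for HBBP1 and 1.27 for HBD, which start 0, 15.2, 20.1, 26.4 and 35.5 kb along the cluster from HBE1. Among these genes, HBB again left out, the order was the same in each of the 12 alternatives that kept transcripts summed to genes. Many of these could hardly change it. Other filters, the block and the moderation keep the fold changes themselves, and a scaling shifts all genes nearly alike. The intervals of neighbours overlapped for HBA2 and HBA1 and for each step from HBE1 to HBBP1, whereas those of HBZ and HBA2, of HBA1 and HBQ1 and of HBBP1 and HBD did not overlap. The steps from HBA2 to HBA1 and from HBG2 to HBG1 rest on the uncertain division of reads within each pair. The pattern was seen in the data first and is given without a test.

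**Figure D4:**
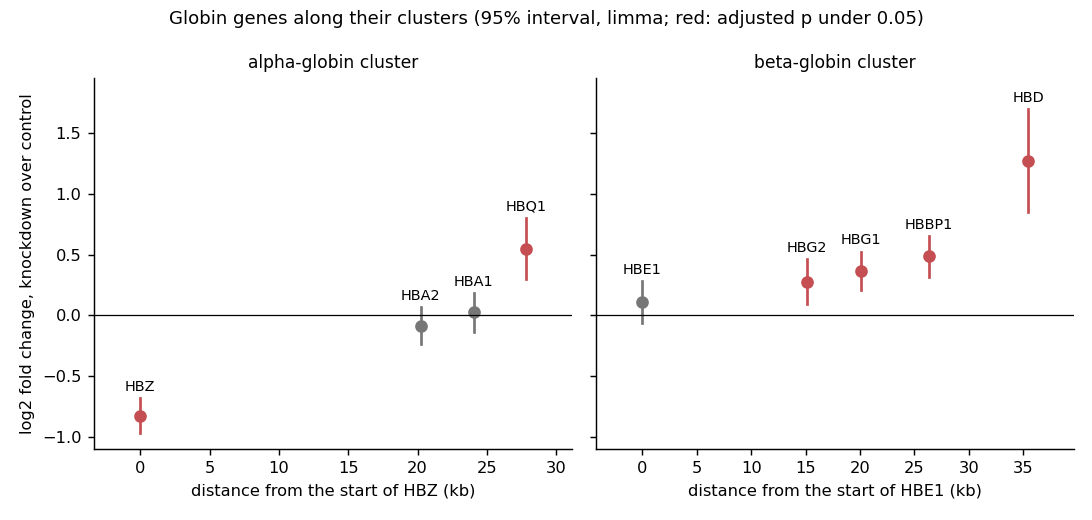
Log2 fold change of each tested globin gene (knockdown over control, with the 95% interval from limma) against the distance in kb from the start of the embryonic gene of its cluster. In both panels the points climb from left to right, from -0.83 for HBZ to 0.55 for HBQ1 and from 0.11 for HBE1 to 1.27 for HBD. The steps within the alpha pair and within the gamma pair rest on an uncertain division of reads.

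Regulators of globin genes went both ways. Of 40 listed from general knowledge, 38 were tested, and 10 were called, a share near the 20.9% of all tested genes. Of these 5 were higher and 5 lower, with a median log2 fold change of 0.020 over the list, against 0.015 over all tested genes. The factors that activate globin genes in erythroid cells were abundant. KLF1 was at 85.8 and 72.02 FPKM in the controls and 86.3 and 78.8 FPKM in the knockdown (limma, adjusted p = 0.632), and GATA1 (-0.10, 0.360) and NFE2 (-0.029, 0.799) were not called either. TAL1, a partner of GATA1, rose from 24.3 and 21.5 FPKM to 30.3 and 30.6 FPKM (limma, log2 fold change 0.39, adjusted p = 0.0134). LDB1, which bridges enhancers and globin promoters, was at 88.7 and 78.3 FPKM in the controls and at 72.1 and 69.1 FPKM in the knockdown (limma, adjusted p = 0.0639).

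Of genes tied to fetal globin, some rose and some fell. ZBTB7A, a repressor of gamma globin, rose by 0.29 (limma, adjusted p = 0.0399), and MTA2, a subunit of the repressive NuRD complex, rose by 0.22 (limma, adjusted p = 0.0364). IKZF1, the Ikaros gene, fell from 15.6 FPKM in both controls to 10.4 and 10.9 FPKM (limma, log2 fold change -0.51, adjusted p = 0.00387). HIC2 fell from 51.9 and 48.4 FPKM to 38.01 and 38.1 FPKM (limma, -0.39, adjusted p = 0.00791). IGF2BP1, a fetal RNA-binding protein, changed by -0.35 (limma, adjusted p = 0.0137), while its relative IGF2BP3 changed by 0.28 (0.0247). LIN28B, a fetal RNA-binding protein that limits let-7, was at 22.5 and 23.0 FPKM in the controls and at 22.4 and 24.7 FPKM in the knockdown (limma, adjusted p = 0.676). The arginine methyltransferase gene PRMT5 (-0.30, limma adjusted p = 0.021) and NFYA (-0.29, 0.0258), a subunit of the factor that binds CCAAT boxes, were lower, and MAFG (0.21, 0.0412), a partner of NFE2, was higher.

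Of the genes that supply heme and handle globin and iron, several fell and the ferritins rose. Of 21 listed from general knowledge, 19 were tested, with 3 called higher and 7 lower, against 10.9% and 9.99% of all tested genes. The median log2 fold change was -0.015, against 0.015 over all tested genes. ALAS2, the erythroid enzyme of the first step of heme synthesis, fell from 23.0 and 19.3 FPKM to 13.1 and 11.6 FPKM, 58.2% of the control level (limma, log2 fold change -0.73, adjusted p = 0.00485). ALAD (-0.39, limma adjusted p = 0.0141), the second enzyme, and FECH (-0.26, 0.0435), which inserts iron, were also lower. So were SLC25A38 (-0.36, 0.0337), which brings glycine into mitochondria and was at -0.23 without control 1 with its call lost (limma, adjusted p = 0.0766), and ABCB10 (-0.37, 0.0126), a mitochondrial transporter of erythroid cells. UROD and UROS, enzymes in the middle of the pathway, were not called.

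PCBP1 and PCBP2 encode poly(C)-binding proteins that bind and stabilize alpha globin mRNA. PCBP1 fell from 213 and 201 FPKM to 142 and 139 FPKM (limma, log2 fold change -0.55, adjusted p = 0.00226), and PCBP2 fell from 164 and 155 FPKM to 121 and 117 FPKM (limma, -0.42, adjusted p = 0.00555). The alpha pair itself was at 98.0% of its control level. The ferritin genes, which store iron, rose, with FTL at 3376 and 2969 FPKM in the controls and 4701 and 4577 FPKM in the knockdown (limma, 0.55, adjusted p = 0.0072) and FTH1 higher by 0.39 (0.0122). NFE2L2, the NRF2 gene, was higher by 0.26 (limma, adjusted p = 0.0233). AHSP, the chaperone of free alpha chains in red cell precursors, was at most at 0.453 FPKM in the 4 libraries. EIF2AK1, the heme-regulated kinase that limits globin translation, was at 92.6 and 87.9 FPKM in the controls and at 88.8 and 90.1 FPKM in the knockdown (limma, adjusted p = 0.891). Each library left out cost some of the 22 called genes of these 3 lists their call. Most of the calls were lost without a knockdown library. All 22 kept their direction, but this was fixed in advance, since their groups did not overlap.

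**Figure D5:**
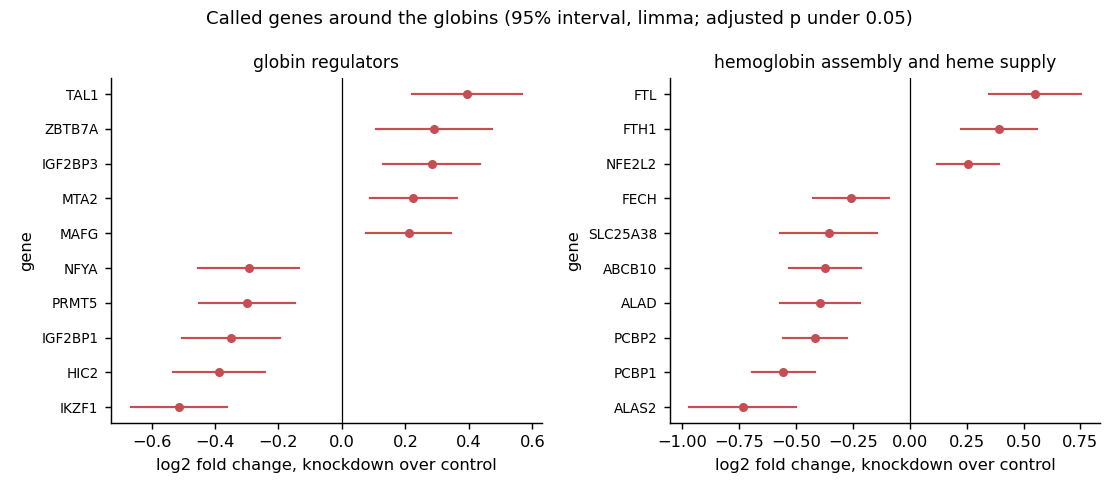
Log2 fold changes (knockdown over control, with the 95% interval from limma) of the 10 called globin regulators and the 10 called genes of hemoglobin assembly and heme supply; genes that were not called are left out. Regulators lie on both sides of 0, with TAL1 highest and IKZF1 lowest, while in the heme supply list ALAS2, PCBP1 and PCBP2 lie lowest and FTL and FTH1 highest.

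The genes whose pattern over the 4 libraries was most like that of each globin were found by the root mean square difference of mean-centred log2(FPKM + 1) values. Candidates were genes averaging 10 FPKM or more, 5439 for HBZ and HBE1 and 5438 for the summed pairs. HBZ was nearest to SMAP2 (0.017), RNF216P1 (0.024) and EI24 (0.024). HBE1 was nearest to ZSCAN9 (0.0029), CTNNBL1 (0.0046) and EEF1G (0.0051), and the alpha pair to PITPNA (0.008), NFYC (0.0087) and FOXL2 (0.0095). The gamma pair was nearest to PLOD3 (0.0091), HSPA5 (0.0092) and NOC4L (0.011). No other globin was among the nearest: seen from HBE1, HBA1 ranked 548th and HBG2 1889th, and seen from HBZ, the nearest globin was HBA2 at rank 1736. With 4 libraries many genes share any given profile, so these neighbours are a description only.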

How the data were processed

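RNA-seq libraries labelled NB4 (2 control, 2 CEBPG knockdown) were analysed. Reads were filtered and mapped with HISAT by the authors (HISAT2 2.0.5 and hg38 in the submitters' processing notes), and FPKM per RefSeq transcript (29265 entries in 1 table) were deposited. The quantifier and annotation release are not given in the sources used here. FPKM holds no counts: among 2235 single-transcript genes below 0.3 FPKM in both controls, the most common ratio of the controls, rounded to 2 decimals, made up 1.30%, so the values gave no whole reads and depth stayed unknown.

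Entries without a symbol (164, with 0.250% of FPKM) or value (183) were left out, and 28918 transcripts were summed to 16504 symbols. Genes averaging 1 FPKM or more were compared as log2(FPKM + 1) in limma 3.58.1 under R 4.3.3 (mean trend, 2-sided, Benjamini-Hochberg over all tested genes, threshold 0.05), a procedure tested on simulated data. A fold change on this scale understates the change of low genes. Ratios were compared by an exact permutation test. The study's methods name DESeq2, which needs counts and was not used. Named genes were the globins, CEBPG, called list members, defining markers and the 3 nearest genes by profile. The globin genes and lists were chosen with earlier results of these data known. Other list members are named for their role, a choice made after their values were seen. Sequences come from GENCODE 44 transcripts on GRCh38, and distances along the clusters from the RefSeq gene table of the same build. BCL11A, HBM, MB, NGB, HMGA2, HMOX1, PF4, PPBP, GP9 and MS4A1 were listed but not analysed here. Each fit was repeated with 0.1 as pseudocount, with other filters, scalings and moderation, with a block for the replicate number, per transcript, and without each library.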

Additional observations from a re-analysis of the deposited data

How the results depend on the processing

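The number of globin genes called (3) was 1 with no filter on low values, 0 for transcripts in place of genes (3 at an unadjusted p under 0.05, limma), 1 to 2 when a library was left out, and 2 to 4 otherwise. The log2 fold change of the gamma pair (0.31) kept its value but not its call with no filter (0.31, limma adjusted p = 0.350), and ranged from 0.26 to 0.36 without its call when a library was left out. HBZ stayed called in 12 of 13 alternatives, from -0.88 to -0.78, the exception being transcripts in place of genes. The uncalled alpha values changed sign when a library was left out: HBA1 ranged from -0.022 to 0.068, with -0.0092 without control 2 and -0.022 without knockdown 1, and the alpha pair from -0.072 to 0.013, with 2.08e-05 without control 1. With alpha taken as HBA1 or HBA2 alone, the log2 change of the zeta-to-alpha ratio (-0.80) was -0.85 or -0.74, and with gamma as HBG1 or HBG2 alone that of the epsilon-to-gamma ratio (-0.20) was -0.25 or -0.17. The causes were not tested. The labels do not say what libraries of the same replicate number share, and their deviations from the group means were correlated by 0.101 over 10968 genes, so no pairing was assumed. With the replicate number as a block, 3440 genes were called in place of 2288 (882 with no filter, 25 of 15795 for transcripts, 809 to 1931 with a library left out), 4 of the 6 globin genes were called, HBE1 (0.11, limma adjusted p = 0.0169) being added, the gamma pair was at 0.31 (limma adjusted p = 9.95e-06) and the alpha pair at -0.029 (0.447). Calls on the genes of the 3 lists were recomputed under 12 of these settings, all but transcripts in place of genes, a choice made after seeing the data; with no filter 6 of 22 stayed called, and without a trend 16. Read depth is unknown, so no counting error can be given for low values such as those of HBD.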
